A study of Homo sapiens with 4 samples.

Results

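The Hedgehog pathway was followed through 9 genes chosen by name: the ligands SHH and IHH, the receptor PTCH1, the signal transducer SMO, the co-receptor GAS1, the ligand-trapping inhibitor HHIP, and the zinc finger transcription factors GLI1, GLI2 and GLI3. Each symbol stood on 1 row of an expression table of 58365 genes, so all 9 were found. Of these, 7 had a mean of at least 0.1 FPKM (fragments per kilobase of gene model, scaled to the mapped fragments of the library) over the 4 libraries and were tested among 21337 genes. SHH and IHH fell below that level and are described by their values.

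The cells were derived from H1, a human embryonic stem cell line, on day 2 of differentiation towards blood. Both groups were kept in Custom mTeSR1 medium with activin A and BMP4, at 40 and 50 ng/ml per the sample labels, while the methods of the study give the concentrations the other way round. The DMSO group held 2 libraries without IWP2 and the IWP2 group 2 libraries from cells treated with IWP2, whose dose is not given in the sources used here. IWP2 blocks Porcupine, the enzyme that attaches the lipid Wnt proteins need for secretion. The comparison therefore asks which genes respond when Wnt secretion is inhibited in cells leaving pluripotency. All libraries came from 1 cell line, and the labels do not say whether they came from separate cultures. The methods speak in general of at least 3 independent experiments, which the 2 libraries per group here do not match. The p-values therefore measure the spread between these libraries, which may be technical.

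In the absence of ligand, PTCH1 holds SMO inactive and GLI2 and GLI3 are processed into repressors. Ligand bound to PTCH1, with GAS1, CDON or BOC as co-receptors, releases SMO, and the GLI proteins then activate transcription. GLI1, PTCH1 and HHIP are themselves targets of the pathway, so their transcripts are commonly read as a measure of its activity, whereas GLI2 and GLI3 are the factors through which the signal first passes. In the gastrulating embryo, Hedgehog ligands come from the node, the notochord and the endoderm and act on the neighbouring mesoderm.

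Depth was read from the low values, because genes with 1 transcript of 1 exon took values near whole multiples of a smallest step. That step corresponded to about 18000000 to 22200000 fragments per library, and between 81.7% and 86.5% of the low values lay within 0.15 of a whole number of steps. Over the tested genes, log2 values correlated with r = 0.976 between the DMSO libraries, r = 0.980 between the IWP2 libraries and r = 0.950 to 0.957 across groups, where genes are not independent replicates. Of 10 genes listed as a Wnt readout, 8 fell with IWP2. The list was chosen with earlier results of these data known, so it is not an independent check of the treatment. SP5 fell from 53.2 and 47.0 FPKM to 0.379 and 0.363, and LGR5 from 21.5 and 27.8 to 0.105 and 0.0763. Falls were smaller for AXIN2, from 14.2 and 15.2 to 6.45 and 5.58, and for NOTUM, from 14.1 and 12.4 to 6.05 and 5.64. TCF7 fell from 16.7 and 17.2 to 7.96 and 8.15. RNF43 and ZNRF3 did not pass the test. Of all genes tested, 5.03% were called lower.

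With IWP2, 2 of the 7 tested Hedgehog genes rose and 1 fell. GLI1 rose 2.92-fold and PTCH1 1.83-fold in mean FPKM, and GLI2 fell to 0.614 of its DMSO level. GLI3, GAS1, SMO and HHIP did not pass the test, which was limma's moderated test with Benjamini-Hochberg adjustment over all 21337 genes and a threshold of 0.05. Over all genes tested, 8.88% of the tested genes were called, 3.85% as higher and 5.03% as lower with IWP2. The 3 called members made up 42.9% of those tested, a share that rests on 7 genes.

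**Figure D1:**
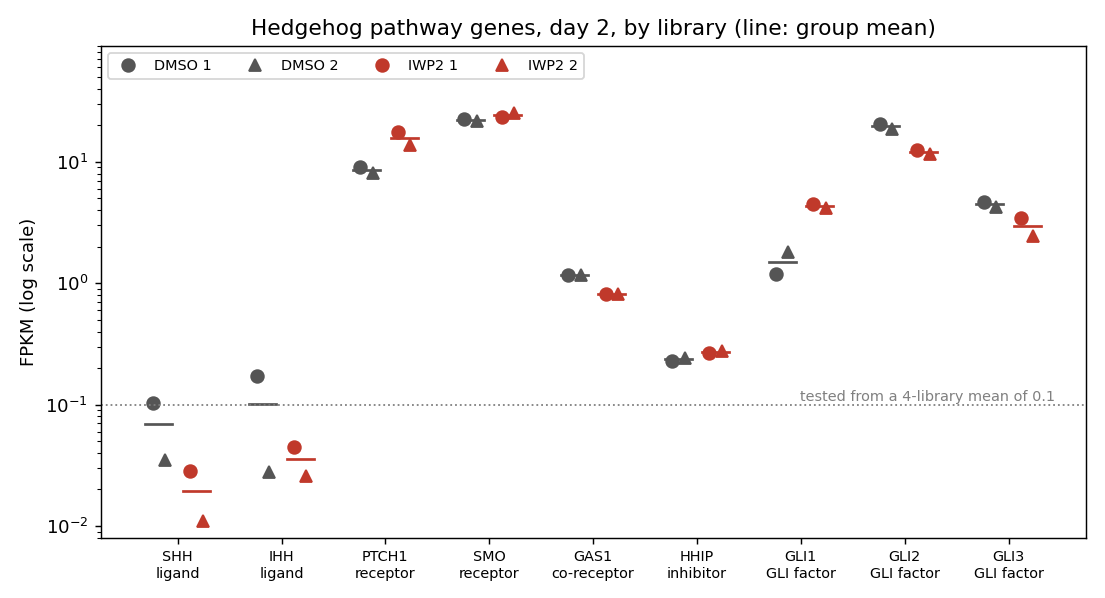
FPKM on a log scale of the 9 Hedgehog pathway genes, with DMSO libraries in grey, IWP2 libraries in red, circles for replicate 1, triangles for replicate 2 and a line at each group mean. SMO lies above 21 FPKM in each library, the ligands SHH and IHH lie below 0.18, and the red symbols of GLI1 and PTCH1 lie above the grey ones.

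The ligand genes were barely detected. SHH, on chromosome 7 (chr7:155799986-155812273, GRCh38, minus strand), measured 0.103 and 0.0348 FPKM in the DMSO libraries and 0.0283 and 0.0109 in the IWP2 libraries. At the length of its longest coding transcript these correspond to about 9.30, 2.79, 2.79 and 0.926 fragments. DMSO replicate 1 was the highest, and the remaining 3 libraries were at or below 3 fragments. IHH (chr2:219054420-219060467, minus strand), which patterns gut and bone, measured 0.173 and 0.0278 FPKM with DMSO and 0.0448 and 0.0260 with IWP2, or about 7.06, 1.01, 2.01 and 1.00 fragments. The groups overlapped, and DMSO replicate 1 was again the highest. A difference between groups was not detectable for either ligand at this depth. DHH, the third Hedgehog ligand, named here after its values were seen, measured 0.104 and 0.0878 FPKM with DMSO and 0.0236 and 0.192 with IWP2. No Hedgehog ligand gene thus exceeded 0.2 FPKM in any library.

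PTCH1 (chr9:95442980-95517057, minus strand), the ligand receptor, measured 9.12 and 8.09 FPKM with DMSO and 17.7 and 13.8 with IWP2. Both IWP2 libraries were above both DMSO libraries, with means of 15.7 ± 2.77 and 8.61 ± 0.730 (SD, n = 2). The groups also did not overlap for SMO, GAS1, GLI3 and HHIP, which were not called. Separation therefore does not set the called members apart, and its share over all tested genes was not computed. On the log2(FPKM + 0.5) scale the difference was 0.83 (SE 0.16, 95% interval 0.42 to 1.23), with a limma adjusted p of 0.0439. On the same scale, 12.2% of tested genes had a larger absolute difference.

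PTCH1 has 5 start sites in the RefSeq promoter table (build GRCh38.p14), which held 7 of the 9 members, and GLI1 and GLI3 were not among them. Each entry spans 250 bases before and 50 after a start. The GLI consensus GACCACCCA, searched on both strands, was found in 1 of the PTCH1 windows and in none of the other member windows, while 0.236% of all 35116 promoters of the same length hold it. The core bound by TCF/LEF factors, CTTTGA, was also searched on both strands. It was found in 1 of the 12 member windows, a GLI2 window, and 12.9% of all promoters hold it. The GLI2 match is therefore no more than this share would give. These windows are shown because PTCH1 and GLI2 are called members that carry a match, with the match in capitals. The PTCH1 window lies at chr9:95509217-95509516 on the minus strand, and its match, in reverse orientation, begins 172 bases before the start. The GLI2 window lies at chr2:120792031-120792330 on the plus strand, and its match, also reversed, begins 149 bases before the start. A match is a description of the letters and not of binding.
PTCH1: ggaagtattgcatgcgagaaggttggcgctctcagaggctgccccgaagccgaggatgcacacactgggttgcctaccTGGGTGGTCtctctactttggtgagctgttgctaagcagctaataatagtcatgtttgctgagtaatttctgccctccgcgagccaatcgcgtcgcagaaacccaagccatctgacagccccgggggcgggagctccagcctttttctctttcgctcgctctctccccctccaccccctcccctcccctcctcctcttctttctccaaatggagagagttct
GLI2: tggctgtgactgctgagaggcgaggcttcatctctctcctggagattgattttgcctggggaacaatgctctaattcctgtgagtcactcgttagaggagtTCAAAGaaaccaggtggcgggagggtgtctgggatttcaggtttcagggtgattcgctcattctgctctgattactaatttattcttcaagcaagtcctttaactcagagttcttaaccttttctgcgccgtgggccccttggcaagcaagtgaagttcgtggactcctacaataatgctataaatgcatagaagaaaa

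SMO (chr7:129188872-129213545, plus strand), the seven-pass membrane protein that PTCH1 restrains, was the highest of the 9 genes in both groups. It measured 22.4 and 21.8 FPKM with DMSO and 23.2 and 25.3 with IWP2. The log2 difference was 0.13 (95% interval -0.11 to 0.37, limma adjusted p = 0.470). The interval leaves room for a rise of up to 0.37, which is smaller than the differences of GLI1 and PTCH1.

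GAS1 (chr9:86944363-86947189, minus strand), a lipid-anchored surface protein that helps ligand bind PTCH1, measured 1.17 and 1.16 FPKM with DMSO and 0.817 and 0.821 with IWP2. The gene is 1 exon, and the values correspond to between about 44.3 and 66.8 fragments per library. The libraries of each group were close to each other and the groups did not overlap. The log2 difference of -0.34 did not pass the test across all genes (95% interval -0.86 to 0.18, limma adjusted p = 0.394).

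HHIP (chr4:144646021-144745271, plus strand), which binds ligands at the cell surface and is a Hedgehog target like PTCH1, measured 0.231 and 0.243 FPKM with DMSO and 0.265 and 0.278 with IWP2. The log2 difference was 0.07 (95% interval -0.47 to 0.60, limma adjusted p = 0.883). At these levels the scale of log2(FPKM + 0.5) understates a change. The antisense gene HHIP-AS1 overlaps 15337 bases of the HHIP locus and measured 0.361 to 0.521 FPKM, above HHIP in each library. The sources used here do not state that counting kept strand, so reads of HHIP and of its antisense gene may not have been separated.

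**Figure D2:**
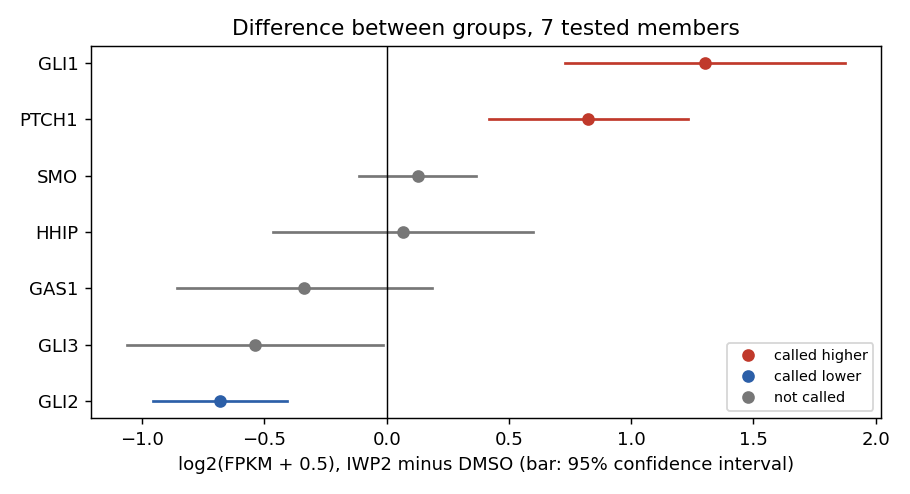
Difference in log2(FPKM + 0.5) between IWP2 and DMSO for the 7 tested Hedgehog genes, with 95% confidence intervals from limma that are not adjusted for the number of genes. The intervals of GLI1 and PTCH1 lie above 0 and those of GLI2 and GLI3 below it, and of these GLI3 is not called after adjustment.

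GLI1 and GLI2 moved in opposite directions. GLI1 (chr12:57460135-57472262, plus strand), an activator and the most direct transcriptional target of the pathway, measured 1.18 and 1.80 FPKM with DMSO and 4.52 and 4.18 with IWP2. Both IWP2 libraries were more than 2 FPKM above the higher DMSO library, with means of 4.35 ± 0.241 and 1.49 ± 0.435 (SD, n = 2). The log2 difference was 1.30 (SE 0.22, 95% interval 0.73 to 1.87, limma adjusted p = 0.0331), and 5.04% of tested genes had a larger absolute difference.

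GLI2 (chr2:120735623-120992653, plus strand), the main activator through which ligand induces GLI1, measured 20.6 and 18.8 FPKM with DMSO and 12.5 and 11.6 with IWP2. The groups did not overlap, as was so for every tested member, called or not. The difference exceeded the spread within either group, with means of 12.1 ± 0.659 and 19.7 ± 1.29 (SD, n = 2). On the log2 scale GLI2 fell by 0.68 (SE 0.11, 95% interval -0.96 to -0.41, limma adjusted p = 0.0266).

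GLI3 (chr7:41960950-42237870, minus strand), which acts mostly as a repressor when no ligand is present, measured 4.66 and 4.25 FPKM with DMSO and 3.43 and 2.45 with IWP2. Both IWP2 libraries were below both DMSO libraries, but the IWP2 libraries also differed from each other. The log2 difference of -0.54 had a 95% interval of -1.06 to -0.02, an unadjusted limma p of 0.0455 and an adjusted p of 0.195, so that it was not called.

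**Figure D3:**
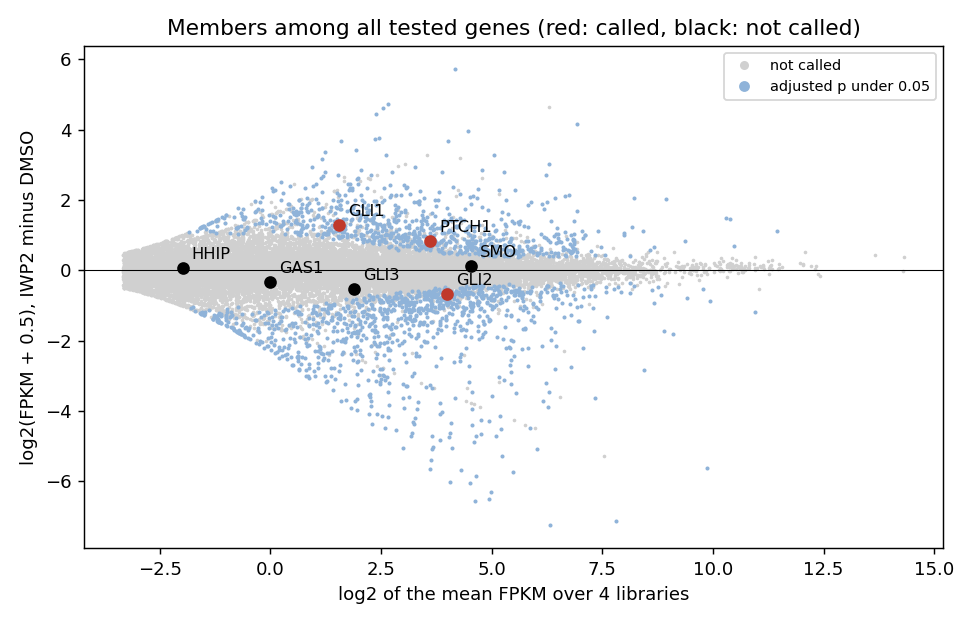
Each of 21337 tested genes by the log2 of its mean FPKM over 4 libraries (x axis) and its difference in log2(FPKM + 0.5), IWP2 minus DMSO (y axis), with called genes in blue and the 7 tested Hedgehog genes as large points. GLI1, PTCH1 and GLI2, in red, lie at differences of 1.30, 0.83 and -0.68, well inside the range of the called genes.

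The order of the 9 genes by mean FPKM changed between groups. With DMSO it ran SMO, GLI2, PTCH1, GLI3, GLI1, GAS1, HHIP, IHH and SHH. With IWP2, PTCH1 stood above GLI2 and GLI1 above GLI3, and the other places were as before. In both groups the libraries of neighbouring genes in this order did not overlap, except for IHH and SHH.

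Ratios within a library do not change when each library is scaled by a single factor. GLI1 stood at 0.0574 and 0.0959 of GLI2 in the DMSO libraries and at 0.360 and 0.360 in the IWP2 libraries. The geometric mean of this ratio was 4.85-fold higher with IWP2. Relative to GLI3, GLI1 rose from 0.254 and 0.423 to 1.32 and 1.71, and so changed from the lower to the higher of the pair in each IWP2 library. PTCH1 stood at 0.443 and 0.431 of GLI2 with DMSO and at 1.41 and 1.19 with IWP2. In contrast, the ratio of GLI3 to GLI2 overlapped between groups, at 0.226 and 0.226 with DMSO and 0.273 and 0.211 with IWP2. The receptor pair also shifted, with PTCH1 at 0.407 and 0.370 of SMO with DMSO and 0.763 and 0.545 with IWP2. Of 7 ratios examined, 6 separated the groups, and for each of these the exact two-sided permutation p was 0.333, the smallest that 2 against 2 libraries allow. The ratios share genes and restate the member values given above, so their separation is not further evidence. How many other gene pairs separate the groups was not examined.

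**Figure D4:**
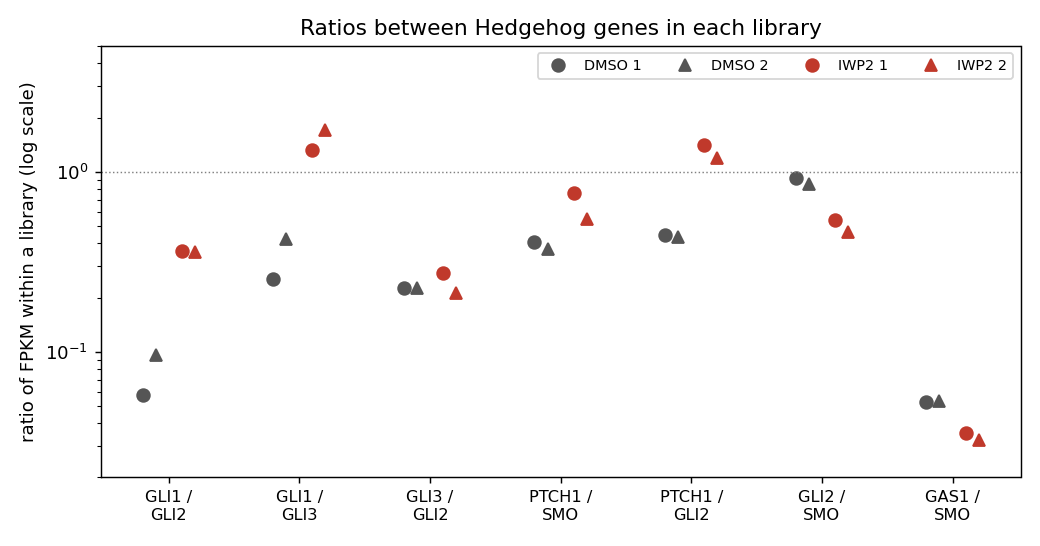
Ratio of the FPKM of 2 Hedgehog genes within each library, on a log scale, with DMSO in grey, IWP2 in red, circles for replicate 1 and triangles for replicate 2. GLI1 against GLI3 and PTCH1 against GLI2 lie below the dotted line at 1 in both DMSO libraries and above it in both IWP2 libraries, while GLI3 against GLI2 overlaps between groups.

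The rest of the pathway was described with 56 further genes listed by role, of which 52 were tested. Among them 4 rose and 4 fell, 15.4% of those tested beside 8.88% of all genes, and their median log2 difference was -0.05 beside -0.01 over all tested genes. Leaving aside genes listed as responding to Hedgehog in some tissues, 3 of 39 rose and none was called lower (36 were not called by limma), a share of 7.69%.

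Among the receptors and co-receptors CDON rose. CDON, an immunoglobulin-domain co-receptor of PTCH1, measured 5.50 and 4.21 FPKM with DMSO and 14.7 and 10.8 with IWP2, a log2 difference of 1.30 (SE 0.21, limma adjusted p = 0.0290). Its relative BOC measured 2.81 and 3.84 with DMSO and 3.49 and 1.83 with IWP2, and the groups overlapped. GPC3, a glypican that competes with PTCH1 for ligand, measured 10.9 and 9.02 with DMSO and 16.7 and 14.4 with IWP2 and was not called (limma adjusted p = 0.0720).

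None of the 7 genes for making and releasing ligand was called by limma. DISP1, which releases the lipid-modified ligand from the cell, measured 2.82 and 3.56 FPKM with DMSO and 2.48 and 2.68 with IWP2. SCUBE3 and SCUBE1, secreted carriers of the ligand, lay between 0.249 and 0.825 FPKM, and the symbol SCUBE1 stood on 2 rows of the table.

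Of 8 genes that regulate SMO or couple it to its effectors, ARRB2 rose. It encodes a beta-arrestin and measured 21.8 and 22.8 FPKM with DMSO and 33.9 and 31.5 with IWP2 (log2 difference 0.54, limma adjusted p = 0.0305). GRK2, the kinase that phosphorylates SMO, measured 32.7 and 38.0 with DMSO and 24.3 and 27.9 with IWP2, and was not called. MGRN1, a ubiquitin ligase that lowers surface SMO, measured 24.6 to 26.9 over the 4 libraries.

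Of 11 genes that control GLI proteins, ULK3 rose. This kinase, which phosphorylates GLI proteins, measured 7.43 and 6.72 FPKM with DMSO and 13.3 and 12.1 with IWP2 (log2 difference 0.80, limma adjusted p = 0.0244). PRKAR1A, CSNK1A1 and PRKACA, parts of the kinase machinery that marks GLI2 and GLI3 for processing, were high in each library, at 83.2 to 101, 68.2 to 80.9 and 25.9 to 29 FPKM, and were not called. SUFU and KIF7, named here after their values were seen because they restrain or position GLI proteins, measured 8.62 and 8.46, and 12.0 and 12.7, with DMSO. With IWP2 they measured 7.12 and 6.53, and 9.33 and 8.41. Neither was called (limma adjusted p = 0.214 and 0.0864).

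None of the 9 genes of primary cilium transport was called by limma, with log2 differences from -0.96 to 0.10. TULP3 measured 15.5 to 16.5 FPKM and FUZ 13.1 to 16. The cilium is the compartment in which vertebrate SMO meets the GLI proteins.

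Of 16 genes that respond to Hedgehog in some tissues, 13 were tested, and 4 fell and 1 rose. These calls were 38.5% of those tested, beside 8.88% of all genes tested. FOXF1, a forkhead factor of lateral mesoderm, fell from 10.2 and 13.7 FPKM to 0.0243 and 0.0844. FOXA2, a forkhead factor of endoderm and the axial midline, fell from 6.28 and 3.49 to 0.222 and 0.297. BMP4 fell from 171 and 193 to 68.8 and 66.0, and SFRP1, a secreted Wnt-binding protein, from 7.93 and 6.23 to 2.99 and 3.05. CCND2, a D-type cyclin, rose from 15 and 13.6 to 25.5 and 28.5. The direction was opposite to that of GLI1 and PTCH1 in 4 of the 5 calls. Whether these genes respond to Hedgehog in these cells was not tested. CCND1, MYCN and FOXF2 were not called.

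**Figure D5:**
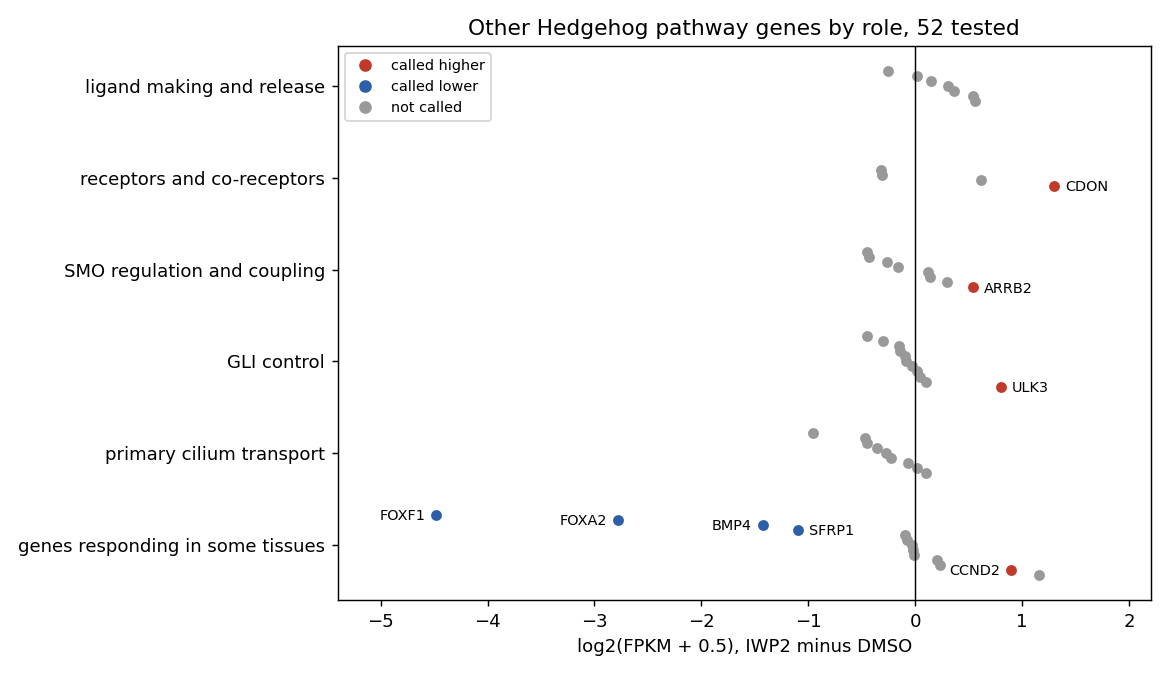
Difference in log2(FPKM + 0.5), IWP2 minus DMSO (x axis), of the 52 tested further Hedgehog pathway genes, each a point, arranged by role, with called genes in red (higher) or blue (lower) and named. The genes for ligand release and cilium transport are all grey, and the called genes that fell belong to the group responding in some tissues.

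Markers of cell states differed between the groups as well. Of 10 primitive streak and early mesoderm markers 9 fell, and their summed level went from 1132 and 1440 FPKM with DMSO to 150 and 173 with IWP2. APLNR, a receptor that marks this mesoderm, went from 380 and 512 to 2.97 and 2.39. Falls were smaller for TBXT, from 21.6 and 18.5 to 9.40 and 10.4, and for HAND1, from 234 and 322 to 101 and 119. Of 6 pluripotency markers 4 rose, TDGF1 fell and NANOG was not called. Their summed level went from 1111 and 941 to 2251 and 2243. POU5F1 made up most of this sum, at 751 and 571 with DMSO and 1854 and 1844 with IWP2. SOX2 went from 0.193 and 0.174 to 35.6 and 36.1. For axial mesoderm and node, a known source of SHH, 3 of 5 tested markers fell, the summed level went from 87.8 and 117 to 30.1 and 37.6, and NOTO stayed at or below 0.0393 FPKM in each library. GSC and LHX1 made up most of the fall in this sum. NOG, at 29.3 and 31.8 with DMSO and 28.4 and 34.4 with IWP2, made up nearly all of the IWP2 sum. NOG and CHRD were not called. FOXA2 stands in that list, in the endoderm list and among the responding genes. Of 6 definitive endoderm markers 4 fell, with summed levels of 1799 and 2173 with DMSO and 123 and 134 with IWP2. CER1, a secreted Nodal and BMP antagonist, made up most of the DMSO sum, at 1612 and 2048 with DMSO and 38.6 and 34.2 with IWP2, while SOX17 measured 155 and 104 with DMSO and 79.7 and 94.9 with IWP2 and was not called.

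Other lineages gave smaller shifts in summed level, although some single genes shifted more than their sums. Amnion and trophoblast markers summed to 63.8 and 63.7 FPKM with DMSO and 80.6 and 87.1 with IWP2, with 2 of 4 tested rising. TFAP2A rose from 16.5 and 12.0 FPKM to 34.0 and 34.2, and KRT7 from 0.833 and 0.864 to 5.85 and 8.22. Neural markers summed to 100.2 and 87.8 with DMSO and 136 and 125 with IWP2, with 1 of 3 tested rising. NES, an intermediate filament gene, made up nearly all of that sum, at 98.6 and 87.1 with DMSO and 136 and 125 with IWP2. PAX6, a neural and eye factor, measured 1.33 and 0.646 with DMSO and 0.0838 and 0.0278 with IWP2 and was not called, and ZIC1 overlapped between the groups. Endothelial and blood markers summed to 55.8 and 63.7 with DMSO and 39.0 and 36.5 with IWP2, with 2 of 4 tested falling and GATA1 at 0 in each library. KDR fell from 53.2 and 60.4 to 38.6 and 35.7, and RUNX1 from 2.51 and 2.35 to 0.21 and 0.350. In bulk RNA, fewer cells of a type and less RNA per cell cannot be told apart, and the part of these shifts in the values of GLI1, PTCH1, CDON, GLI2 and GLI3 was not tested.

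The genes whose profile over the 4 libraries was most like that of PTCH1 were DOC2A, AC125616.1, AC098934.1, AC060766.7 and LINC01125, at Euclidean distances of 0.0765 to 0.0939 between centred log2(FPKM + 0.5) values. DOC2A, a calcium sensor of vesicle release, measured 0.804 and 0.678 FPKM with DMSO and 2.14 and 1.52 with IWP2. With 4 libraries in 2 groups such likeness holds little beyond the difference between groups and that between the IWP2 libraries.

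The 3 calls could not be tested by leaving out a library, because the spread of an arm of 1 library cannot be measured. Each of the 4 libraries was left out in turn for the size of the differences alone. The log2 differences then ranged from 1.08 to 1.53 for GLI1, 0.65 to 1.00 for PTCH1 and -0.75 to -0.62 for GLI2. Without a filter on low values, none of the 3 passed (adjusted p of 0.109 for GLI1, 0.125 for PTCH1 and 0.0735 for GLI2 among 28917 genes). Without the mean-variance trend PTCH1 (adjusted p = 0.0898) and GLI2 (adjusted p = 0.0706) did not pass, and with the replicate number as a block GLI1 (adjusted p = 0.0544) did not.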

How the data were processed

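RNA-seq libraries of H1-derived cells at day 2 (DMSO, n = 2; IWP2, n = 2) were compared. The deposited table gives FPKM values per gene and library, which the authors made from TruSeq libraries; the submitters' processing notes name BWA, Bowtie, RSEM and hg19, without versions. The coordinates in its gene identifiers are, however, GRCh38: of 58102 identifiers in GENCODE 29, 97.3% had the same chromosome, start and end. FPKM values are not counts, so genes with a mean of at least 0.1 were tested as log2(FPKM + 0.5) with limma 3.58.1 (mean-variance trend, two-sided, Benjamini-Hochberg, threshold 0.05) in R 4.3.3, without minimum fold, after the fit was tested on simulated data. Column headers carry a sign and a number; the untreated columns were assigned to the DMSO group by sign, and replicate numbers are those of the headers. The depth estimate used genes of 1500 to 6000 bases, ignores the shortening of lengths by fragment size, and covers counting only. Alternatives were pseudocounts of 0.1 and 1, no filter, a filter at 1, median scaling, quantile normalization, a replicate block, no trend, and leaving out each library. Members and lists were chosen with earlier results of these data known. Members were named in full; of each role, called genes and up to 3 uncalled genes of highest mean were named. Values of some further genes are not reported here.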

Additional observations from a re-analysis of the deposited data

How the results depend on the processing

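GLI1 and PTCH1 were higher and GLI2 lower with IWP2 under all 12 alternatives, and the direction of GLI3, SMO, GAS1 and HHIP also did not change where they were tested. For most alternatives this was fixed in advance. The filter, block and trend settings leave the estimate unchanged. As the groups of these genes did not overlap, a pseudocount or a library left out cannot reverse it. Only median scaling and quantile normalization could have changed a direction. The calls did change. Without a filter on low values 313 of 28917 genes were called (91 higher, 222 lower), against 1895 (821 higher), with 0 of the members and 2 of the further pathway genes, and GLI1 (1.30), PTCH1 (0.83) and GLI2 (-0.68) kept their log2 differences but were not called. Without a mean-variance trend 1302 genes were called (528 higher), with 1 member, GLI1, and 5 further pathway genes, and PTCH1 (0.83, adjusted p = 0.0898) and GLI2 (-0.68, adjusted p = 0.0706) were lost. With a replicate block 1391 genes were called, and GLI1 (1.30, adjusted p = 0.0544) was lost. The replicate numbers are shared by name alone: the differences between replicates 1 and 2 correlated with r = 0.115 across genes between the groups, and the block ended no other call of a member. Leaving out 1 library gave log2 differences of 1.08 to 1.53 for GLI1, 0.65 to 1.00 for PTCH1 and -0.75 to -0.62 for GLI2. An arm of 1 library is assumed to vary like the other arm, so these fits do not test the calls. Pseudocounts, a filter at 1 and both scalings ended no call of a member. Median scaling moved the median difference of all genes by 0.07 and the share of called genes that were higher from 43.3% to 51.6%. No symbol of a member was repeated, so summing rows changed nothing. Count-based tests were not run because the table holds FPKM. Depth limits SHH and IHH, at about 0.926 to 9.30 fragments per library at the length of the longest coding transcript. At the length of its shortest coding transcript, SHH stood at about 0.141 to 1.41 fragments.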

Other observations

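Genes that overlap the members on the opposite strand were also read. Within PTCH1, the antisense gene AL161729.1 measured 0.832 and 0.782 FPKM with DMSO and 0.416 and 0.832 with IWP2, AL161729.4 between 0.223 and 0.544, and AL161729.2 between 0 and 0.275, none of them called. Within SMO, AC011005.4 measured 0.315 and 0.571 with DMSO and 0.571 and 0.173 with IWP2. ARHGAP9, which shares 8 bases with the end of GLI1, measured 0.918 and 0.465 with DMSO and 0.271 and 0.414 with IWP2, so that its level, unlike that of GLI1, was not higher in the IWP2 libraries. GREM1, a BMP antagonist listed among the genes that respond to Hedgehog in some tissues and named here after its values were seen, measured 0.357 and 0.141 with DMSO and 1.29 and 1.03 with IWP2 (limma adjusted p = 0.0624). DYNC2H1, the motor of transport back along the cilium, also named after its values were seen, measured 2.42 and 3.16 with DMSO and 0.961 and 1.45 with IWP2 (limma adjusted p = 0.0896).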
